A study of Homo sapiens with 12 samples.

Results

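The myogenic regulatory factors MYOD1, MYOG, MYF5 and MYF6 and their partners MEF2A, MEF2C and MEF2D were examined in Rh30 cells, an established line of alveolar rhabdomyosarcoma that carries the PAX3-FKHR (PAX3-FOXO1) fusion. The genes were chosen with earlier results of these data known. Their probes were then taken by gene symbol alone, which gave 10 probes for 7 genes among 41000 probes for 23870 gene names on the array. The cultures compared were WT, CON and KD1. WT was the untransfected parental line, grown without puromycin. CON was a single clone of Rh30 that carries a non-targeting shRNA, and KD1 was a single clone that carries an shRNA against PAX3-FKHR; both were kept in puromycin at 1 μg/mL. RNA was taken 24 h after plating. KD1 vs CON, KD1 vs WT and WT vs CON were hybridized directly, each on 4 arrays (2 biological replicates, each with its dyes swapped), which makes 12 arrays of 6 RNA extracts. WT differs from both clones in cloning, in the vector and in puromycin at once, so these cannot be told apart, and each clone stands for itself only.

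MYOD1, MYOG, MYF5 and MYF6 are the basic helix-loop-helix factors that turn a precursor into a muscle cell. They bind the E-box as dimers with E proteins such as TCF3 and TCF12, and the ID proteins take those partners away. MYF5 and MYOD1 act early in commitment, MYOG drives terminal differentiation and MYF6 acts late in the fiber. The MEF2 factors are MADS-box proteins that cooperate with them on muscle promoters and are held back by class IIa histone deacetylases. MYOD1 and MYOG are the nuclear stains by which pathologists recognize rhabdomyosarcoma, a tumor that expresses these factors and yet does not complete differentiation.

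The MYOG promoter shows how the families meet, and it is set beside those of MYF5 and MYF6 because these are the other myogenic factors with a promoter window in the table used here. Each line gives the 150 bases before the annotated start from RefSeq on build GRCh38.p14, 5′ to 3′. Capitals mark matches on either strand to the E-box CANNTG and the MEF2 core CTANNNNTA.
MYOG, chr1:203086013-203086162, minus strand: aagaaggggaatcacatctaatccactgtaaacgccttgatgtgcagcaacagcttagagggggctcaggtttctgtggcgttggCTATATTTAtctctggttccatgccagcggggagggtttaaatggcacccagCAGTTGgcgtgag
MYF5, chr12:80716762-80716911, plus strand: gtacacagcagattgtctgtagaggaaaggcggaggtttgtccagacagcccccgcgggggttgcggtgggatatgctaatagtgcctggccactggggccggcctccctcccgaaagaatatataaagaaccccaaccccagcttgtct
MYF6, chr12:80707484-80707633, plus strand: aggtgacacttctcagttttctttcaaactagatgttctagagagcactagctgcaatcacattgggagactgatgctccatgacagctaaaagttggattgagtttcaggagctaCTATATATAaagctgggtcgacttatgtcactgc
In the MYOG window the MEF2 match CTATATTTA begins 65 bases before the start and the E-box CAGTTG 13 bases before it, and they do not overlap. The MYF6 window holds a MEF2 match that begins 34 bases before the start, in an AT-rich stretch. No match lies in the MYF5 stretch shown. Farther upstream an E-box CAAATG begins 222 bases before the MYF5 start, inside the 250 bases used for the shares that follow. Among 35116 promoter windows of the same 250 upstream bases, 61.8% held an E-box and 14.6% the MEF2 core. Windows were found for 6 of the 7 members, all but MYOD1. A match describes letters, not binding.

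The share of spots well above background was 71.1% to 73.6% in Cy3 and 64.4% to 67.8% in Cy5 over the arrays, and no spot was saturated. The 4 arrays of WT vs CON shared a slide, and those with KD1 lay on 1 slide per replicate, where slide and replicate cannot be told apart. The dye-swap pair of KD1 vs WT replicate 2 stood apart: its arrays differed from each other by a median of 0.407 on the log2 scale over the probes tested, against 0.162 to 0.193 in the other 5 pairs. Of the markers set for this tumor type, 7 of 8 were well above background in every reading of KD1 and 6 of 8 in every reading of CON and of WT, while TFAP2B was in none of the 8 readings of any culture. The fibroblast markers that passed in every reading numbered 4 of 7 in each culture. For blood markers it was 2 of 5 in each culture, with PTPRC and HBB in no reading. For epithelial markers it was 3 of 5 in KD1 and in WT and 2 of 5 in CON, and here the WT replicate 2 extract stood apart. The log2 level of EPCAM was 7.37 in it and 1.79 to 1.95 in the other 5 extracts, that of KRT19 was 8.78 against 4.73 to 5.61, and that of CDH1 was 4.14 against 1.76 to 2.43. KRT8 did not set this extract apart, at 10.15 in it, 10.165 in KD1 replicate 2 and 9.82 to 9.84 in the others. KRT18 was higher in both WT extracts, at 10.41 and 10.71 against 9.35 to 9.79. The summed log2 level of the epithelial list was 11.17 and 11.75 in WT and 10.64 to 10.89 in the other extracts. For the fibroblast list it was 14.08 and 13.08 in WT and 12.69 to 13.42 in the others. The 5 probes for PAX3 and FOXO1 had fitted log2 ratios of −0.59 to 0.06 in KD1 against CON or WT. They can measure the unrearranged genes, and which of them read the fusion was not established. Of these 10 ratios 9 were below 0, and the smallest adjusted p was 0.30 (limma).

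Ratios below are log2 values with the first-named culture as numerator, averaged over each dye-swap pair, and given per replicate. The fitted value comes from limma on the 6 extracts with the replicate number as a block, and a probe was called at an adjusted p (Benjamini-Hochberg over all probes tested) under 0.05. The p-values measure only the spread between these samples. In bulk RNA, fewer cells that express a gene and less RNA per cell cannot be told apart. MYF6 did not pass the filter on low signal, so 9 probes of 6 genes were tested in each comparison. In KD1 vs CON, 0 of these 9 probes were called, where 0.734% of all 21937 probes tested were; 2 of the 9 had an unadjusted p under 0.05, beside 17% of all probes. In KD1 vs WT, 0 of 9 were called beside 0.43% of 24884 probes, and 5 had an unadjusted p under 0.05, beside 16.9% of all. In WT vs CON, 2 of 9 were called beside 0.493% of 26595 probes, and 6 had an unadjusted p under 0.05, beside 17.1% of all. Both called probes belong to MYOG and share 51 of their 60 bases, so they are 1 measurement made on 2 spots, and the count of called genes is 1 of 6. The counts at an unadjusted p hold both MYOG probes in each comparison. In KD1 vs CON these are the only 2, so there too the count over genes is 1 of 6. The count in WT vs CON holds both MEF2A probes as well.

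**Figure D1:**
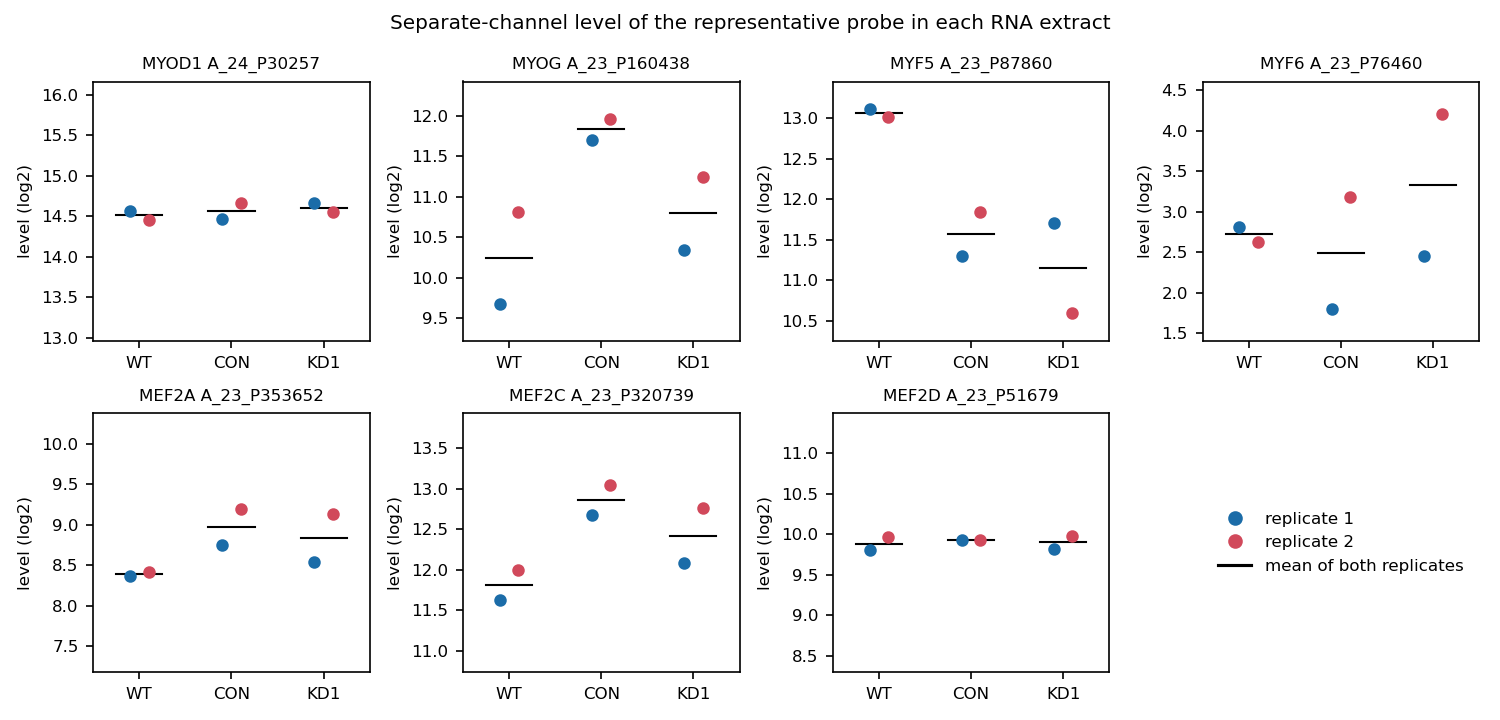
Log2 level of the brightest probe of each member in each of the 6 RNA extracts (y axis, separate-channel values averaged over 4 arrays per extract; x axis, culture; bars, mean of both replicates). MYOG was highest in both CON extracts, MEF2C was lowest in both WT extracts, MYF5 was highest in both WT extracts, and the 6 values of MYOD1 and of MEF2D lie close together; the MYF6 values were mostly not well above background.

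MYOG, the factor of terminal differentiation, had its highest level in CON. Its log2 level was 11.70 and 11.96 in the CON extracts, 10.34 and 11.25 in KD1 and 9.68 and 10.81 in WT (probe A_23_P160438, minus strand, chr1:201319494-201319553 on NCBI36). The CON values lay above all 4 others, whereas those of KD1 and WT overlapped between replicates. Within each replicate KD1 lay above WT. The WT vs CON ratio was −1.96 in replicate 1 and −1.49 in replicate 2, a mean of −1.73 ± 0.33 (SD, n = 2), or 3.31-fold lower in WT, with the same direction on 4 of 4 arrays. This was the only member difference that was called (fitted log2 ratio −1.73, SE 0.20, adjusted p = 0.048 by limma). The second probe (A_24_P311036, chr1:201319485-201319544) gave −2.13 and −1.49 and an adjusted p of 0.048 by limma. The adjusted p lay just inside the threshold, and 5 of 7 alternative processings took it above 0.05. Over all 7 the brighter probe had log2 ratios of −1.75 to −1.56 and adjusted p of 0.0041 to 0.204 (limma).

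In KD1 vs CON the MYOG ratio was below 0 on 4 of 4 arrays as well. The ratio of the brighter probe was −1.35 in replicate 1 and −0.92 in replicate 2 (mean −1.14 ± 0.30, SD, n = 2), which is 2.20-fold, and 2.89% of the probes tested had a larger fitted difference. The fit gave an adjusted p of 0.082 by limma, which misses the threshold. Without WT replicate 1 or WT replicate 2 in the fit both MYOG probes were called in KD1 vs CON (adjusted p = 0.034 and 0.031 by limma for the brighter probe). In these fits the share of all probes called also rose, from 0.734% to 5.24% and 5.69%.

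Between KD1 and WT the size of the MYOG ratio rested on the dye-swap pair that stood apart. Replicate 1 gave 0.82 with KD1 in Cy5 and 0.66 with KD1 in Cy3. Replicate 2 gave −0.66 with KD1 in Cy5 and 1.58 with KD1 in Cy3: on each of these arrays the RNA labeled with Cy3 was the brighter one, with log2 signals of 11.90 for WT and 12.01 for KD1. The 2 arrays thus differed by 2.24, and 1.67% of the 24884 probes tested differed by more in this pair. The second MYOG probe behaved alike, with −0.57 and 1.53. Averaged over the dyes, the KD1 vs WT ratio was 0.74 and 0.46 in the replicates, and the fit gave 0.60 (SE 0.20, 95% interval 0.093 to 1.103, adjusted p = 0.241 by limma). The interval excludes 0 for this probe taken alone, but the ratio was not called over all probes. With either array of the pair left out, the fit gave 0.22 or 0.97 for KD1 vs WT and −1.54 or −1.92 for WT vs CON, the adjusted p of the latter rising to 0.119 and 0.059 (limma). Such a fit takes the replicate 2 ratio from 1 array, whose dye difference is then not averaged out. A shift was therefore built in, and these fits cannot show what the ratio would be without the dye difference.

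**Figure D2:**
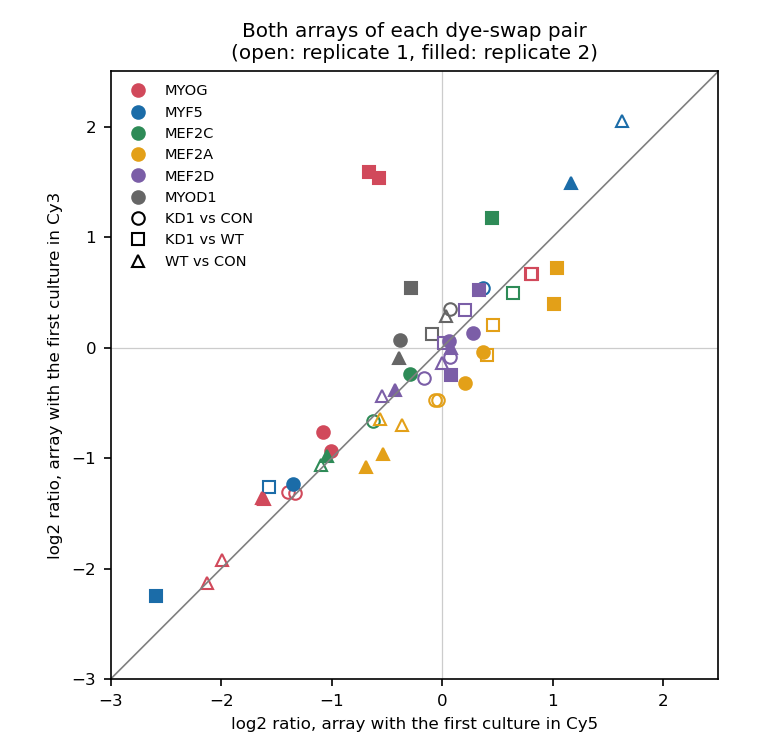
Log2 ratio of each tested member probe on both arrays of a dye-swap pair (x axis, first culture in Cy5; y axis, first culture in Cy3; colors, genes; shapes, comparisons; open, replicate 1; filled, replicate 2; gray line, equality). The 2 MYOG probes in KD1 vs WT replicate 2 lie far from the line, at −0.66 against 1.58 and −0.57 against 1.53.

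MYF5, which marks committed precursors, ran the other way, with its highest level in WT. Its log2 level was 13.11 and 13.01 in WT, 11.30 and 11.85 in CON, and 11.71 and 10.59 in KD1 (probe A_23_P87860, plus strand, chr12:79637193-79637252). Both WT values lay above the other 4, and those of CON and KD1 overlapped. The WT vs CON ratio was 1.84 and 1.33 in the replicates (mean 1.58 ± 0.36, SD, n = 2), higher on 4 of 4 arrays, or 3.0-fold. The fit gave 1.55 (SE 0.39, adjusted p = 0.161 by limma). In KD1 vs WT the ratio was −1.42 and −2.42 (mean −1.92 ± 0.71, SD, n = 2), lower on 4 of 4 arrays, or 3.78-fold, and 0.936% of all probes tested had a larger fitted difference. The adjusted p was 0.129 by limma. Neither difference was called, although few of the probes tested had larger ones.

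The replicates of KD1 vs CON disagreed on MYF5. From replicate 1 to replicate 2 its level fell in KD1 (11.71 to 10.59) and rose in CON (11.30 to 11.85). The KD1 vs CON ratio was 0.37 and 0.54 on the arrays of replicate 1 and −1.35 and −1.24 on those of replicate 2. Both dyes of each replicate thus had one sign, and the replicates had opposite signs. The mean was −0.42 ± 1.24 (SD, n = 2), and the fitted 95% interval ran from −1.35 to 0.57. Without KD1 replicate 1 the fitted MYF5 difference from WT was −2.63, and without KD1 replicate 2 it was −1.28. Each of these fits holds a single KD1 extract, so the split between the KD1 replicates is outside its error and no p-value is given. ID1 and ID3, whose products withhold E proteins from these factors, showed the same split. In KD1 vs CON, ID1 gave 0.98 and −1.82 in replicates 1 and 2 and ID3 gave 0.43 and −1.52, with adjusted p of 0.830 and 0.622 by limma.

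MYOD1, the factor that can convert fibroblasts to muscle, did not separate the cultures. Its log2 level was 14.57 and 14.46 in WT, 14.47 and 14.67 in CON and 14.66 and 14.55 in KD1 (probe A_24_P30257, plus strand, chr11:17699518-17699577), and all 24 readings were well above background. The fitted log2 ratio was 0.03 in KD1 vs CON (95% interval −0.44 to 0.49), 0.07 in KD1 vs WT (−0.41 to 0.55) and −0.04 in WT vs CON (−0.52 to 0.44). Differences inside these intervals cannot be seen with 2 extracts per culture.

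MYF6, the late factor whose gene lies beside MYF5 on chromosome 12, was near background (probe A_23_P76460, plus strand, chr12:79627090-79627149). It was well above background in 2 of 8 readings of KD1, 1 of 8 of CON and 0 of 8 of WT. All 3 readings were of replicate 2 extracts in Cy3, with log2 signals of 4.37 and 5.09 for KD1 and 3.77 for CON. No ratio is drawn from it, since the mean KD1 level did not exceed the background limit of the WT readings.

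**Figure D3:**
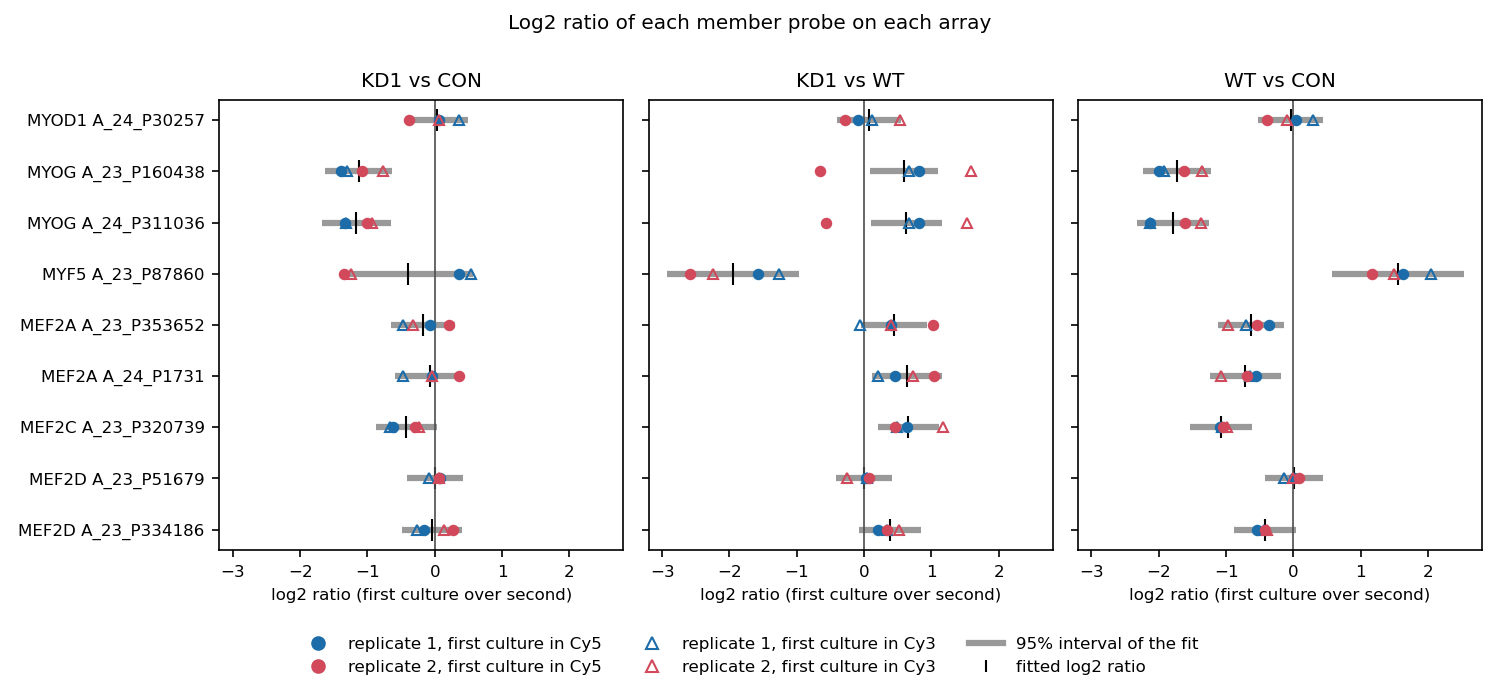
Log2 ratio of the 9 tested member probes in the 3 comparisons (x axis; points, arrays, colored by replicate and shaped by the dye of the first culture; black tick, fitted ratio; gray bar, 95% interval of the fit). The MYOG probes sit below 0 on all 8 arrays that carry CON, MYF5 sits below 0 on all KD1 vs WT arrays and above 0 on all WT vs CON arrays, and MYOD1 stays around 0.

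MEF2C, the MEF2 factor most tied to muscle and heart, had its lowest level in WT. Its log2 level was 12.68 and 13.04 in CON, 12.08 and 12.76 in KD1 and 11.62 and 11.99 in WT (probe A_23_P320739, minus strand, chr5:88052573-88052632). The WT values lay below all others, and those of CON and KD1 overlapped. The WT vs CON ratio was −1.08 in replicate 1 and −1.01 in replicate 2 (mean −1.05 ± 0.05, SD, n = 2), or 2.07-fold, lower on 4 of 4 arrays. The fitted value of −1.08 (SE 0.19) had an adjusted p of 0.092 by limma. KD1 lay between, at 0.56 and 0.81 over WT and −0.64 and −0.27 under CON, each with the same sign on 4 of 4 arrays and with adjusted p of 0.188 and 0.319 by limma.

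MEF2A, the widely expressed member, had its lowest values in WT on both probes (plus strand, chr15:98070865-98070924 and chr15:98071075-98071134). In WT vs CON the brighter probe A_23_P353652 gave −0.53 and −0.75 and the other, A_24_P1731, gave −0.60 and −0.89, lower on 4 of 4 arrays each. The fitted values of −0.63 and −0.71 had adjusted p of 0.224 and 0.203 by limma. KD1 and CON did not separate, with fitted ratios of −0.18 and −0.08.

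The probes of MEF2D, another broadly expressed member, disagreed (minus strand, chr1:154703209-154703268 for A_23_P51679, and A_23_P334186 with a mapped range of 6147 bases in the files, chr1:154705383-154711529). The brighter probe A_23_P51679 had fitted log2 ratios between −0.0032 and 0.0072 in the 3 comparisons, whose sign turned under other scalings. The other gave −0.49 and −0.41 in WT vs CON, lower on 4 of 4 arrays, with an adjusted p of 0.326 (limma). Whether the probes differ was not tested.

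The 3 comparisons use separate arrays and can be set against each other within a replicate. For the 9 tested probes, KD1 vs CON differed from KD1 vs WT plus WT vs CON by 0.0014 to 0.205 (median 0.065 over 18 values). These arrays carry the same extracts, so the differences measure technical error and not the spread between cultures.

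Without WT replicate 2, the extract with the high EPCAM, KRT19 and CDH1 levels, the fit holds a single WT extract. Its WT vs CON ratios were −1.91 for the brighter MYOG probe, 1.41 for MYF5 and −1.04 for MEF2C. The MEF2A probes gave −0.44 and −0.49. In the same fit KD1 vs WT gave 0.79 for that MYOG probe, −1.84 for MYF5 and 0.61 for MEF2C. Each kept the sign it had with the extract.

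Among the partners and antagonists, no gene of the E protein and ID list was called in any comparison (0 of 6 tested). Of all genes tested, 0.334% were called higher and 0.537% lower in KD1 vs CON. These shares were 0.085% and 0.438% in KD1 vs WT, and 0.395% and 0.21% in WT vs CON. At such shares, 0 calls in lists this short say little about their genes. TCF3 had fitted ratios of 0.08, −0.03 and 0.11 in KD1 vs CON, KD1 vs WT and WT vs CON. TCF12 had a fitted ratio of −0.55 against CON, with replicates of −0.46 and −0.73, and of −0.59 against WT, with replicates of −0.54 and −0.56 (adjusted p = 0.208 and 0.201 by limma). ID1 was at 1.20 in WT vs CON, with replicates of 1.19 and 1.23 (adjusted p = 0.435 by limma), ID2 was at −0.60 and ID3 at 0.47. The fit shares its spread over all cultures, and the KD1 replicates disagreed on ID1. The list of other repressors of myogenesis, such as TWIST1, SNAI2 and MSC, had 0 calls among 9 genes tested in KD1 vs CON and 10 in each of the other comparisons. The upstream regulators had 0 calls among 7, 9 and 10 genes tested, some of them with large ratios. EYA2, a coactivator of the eyes absent family named here after its values were seen, gave −5.12 and −2.90 in KD1 vs WT (fitted −3.93, adjusted p = 0.152 by limma). In KD1 vs CON it gave −1.66 and −3.45 without passing the filter on low signal. IGF2, a growth factor of muscle precursors, likewise named after its values were seen, gave −1.16 and −1.06 in WT vs CON (adjusted p = 0.092 by limma). The cofactors of MEF2 and MYOD, such as HDAC4 and EP300, had 0 calls among 16 in each comparison, with medians of 0.07, 0.03 and 0.12.

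The muscle genes that MYOD, MYOG or MEF2 activate were mostly below 0 for WT over CON and above 0 for KD1 over WT, and their medians lay farther from 0 in replicate 2. Of 37 tested in WT vs CON, 30 had a fitted ratio below 0, and the median was −0.69 where the median of all 16215 genes tested was −0.027. The median was −0.29 in replicate 1, with 28 below 0, and −0.86 in replicate 2, with 35 below 0. In KD1 vs WT, 28 of 35 were above 0 with a fitted median of 0.74, beside 0.0033 over 15297 genes; the WT extracts are shared by both comparisons. Replicate 1 gave a median of 0.19 with 19 above 0, and replicate 2 gave 1.28 with 31 above 0. WT replicate 2 is the extract with the high EPCAM, KRT19 and CDH1 levels, whose part in these ratios was not tested. Without it 21 of 37 were below 0 in WT vs CON, with a median of −0.16, and 23 of 35 were above 0 in KD1 vs WT, with a median of 0.26.

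In KD1 vs CON the replicates of the muscle genes ran in opposite directions. In replicate 1, 26 of 34 were below 0 with a median of −0.24, and in replicate 2, 24 of 34 were above 0 with a median of 0.46. TNNC1, the troponin C of slow and cardiac muscle, gave −1.09 and 1.49, and MYLPF, a fast myosin light chain, gave −0.71 and 1.62, both named after their values were seen. The fitted median of 0.0092, with 17 above and 17 below 0, averages over this split and stood beside −0.019 over 13783 genes.

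Few of the muscle genes passed the test. In WT vs CON 3 of 37 were called lower, beside 0.21% of all genes tested, and in KD1 vs WT 1 of 35 was called higher, beside 0.085%. The list was chosen with earlier results of these data known. With another background correction (normexp with loess) 0 of all probes were called in WT vs CON, so these 3 calls depended on the processing. MYBPH, a myosin-binding protein, was called lower in WT than in CON (−3.22 and −2.99, adjusted p = 0.026 by limma) and higher in KD1 than in WT (2.31 and 3.05, adjusted p = 0.044 by limma). TNNI1, slow troponin I, and MYL4, an embryonic myosin light chain, named here after their values were seen, were called lower in WT than in CON, with fitted ratios of −2.38 and −1.90 and adjusted p of 0.031 and 0.043 by limma. The other muscle genes tested missed the threshold in all 3 comparisons. With 1 extract left out, the median fitted ratio of the muscle genes in WT vs CON ran from −1.28 to −0.16. Without WT replicate 2 the fitted ratios in WT vs CON were −2.56 for TNNI1, −3.01 for MYBPH and −2.02 for MYL4. MYBPH was at 2.52 in KD1 vs WT in the same fit. It holds a single WT extract, so the spread between the WT replicates is outside its error and no p-value is given.

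The members were also set beside the 10 placed genes on each side of them. Around MYOG the 15 neighbours tested in WT vs CON had a median of −0.08, and 1 of them was below MYOG: MYBPH, at −3.14. The 13 tested in KD1 vs CON had a median of 0.13, and 0 were below MYOG. Around MYF5 the 11 neighbours tested in WT vs CON had a median of 0.15 and the 10 tested in KD1 vs WT a median of −0.04, and 0 lay beyond MYF5 in either comparison. Around MEF2C the 11 neighbours tested in WT vs CON had a median of −0.10 with 0 beyond MEF2C. MEF2A differed from these: its 13 neighbours tested in WT vs CON had a median of −0.29, and 3 lay below MEF2A. Around MYOD1 the neighbours had medians of 0.33 over CON and 0.40 over WT in KD1, with 12 and 13 tested, while MYOD1 itself lay at 0.03 and 0.07.

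The genes whose 6 dye-swap averaged ratios were closest to those of MYOG, among 11396 other named genes, were SHROOM2, the noncoding RNA LINC00472 and the dehydrogenase DHRS2. Their root mean square differences from MYOG were 0.371, 0.384 and 0.390, where the median gene differed by 1.30. Their fitted ratios in WT vs CON were −1.49, −1.70 and −1.24, of which that of LINC00472 was called (adjusted p = 0.049 by limma). The genes were picked by these same ratios, so their nearness to MYOG in WT vs CON follows from the choice. The call is no separate support.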

How the data were processed

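RNA from WT, CON and KD1 was labeled (500 ng per sample) and hybridized to 12 Agilent 2-color arrays. The deposited scanner files hold linear intensity values per spot; the authors obtained them with Agilent Feature Extraction 10.5.1.1, by background subtraction, detrending and lowess within each array. The deposited series table holds log2 ratios with dye swaps already turned and was used as an alternative; 6070 to 7446 values per array were exactly 0, and at least 99.8% of the others lay within 0.01 of the scanner ratio; 0 of its columns were left without an array. Members and gene lists were chosen with earlier results of these data known.

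Log2 ratios of the processed signals were averaged over spots without outlier flags (95 to 188 per array) and over dye pairs. For each replicate, the 3 ratios were solved by least squares for 3 extract values, and limma 3.58.1 in R 4.3.3 (lmFit, eBayes) was fitted on culture and replicate with 2 residual degrees of freedom. A probe entered the test of a comparison if, on each of its 4 arrays, either dye gave a net signal over the 99th percentile of 153 negative controls. Replicate numbers are a block because extracts met on arrays only within a number; the replicate deviations correlated at 0.541 for KD1 and CON, −0.071 for KD1 and WT and −0.019 for WT and CON over 21870 probes. The fit was tested on simulated KD1 vs CON data with 200 changed of 21937 probes. It recovered 44.0% of changes of 1 and 99.2% of changes of 2 (log2), with 19.6 false calls on average. Even with every changed probe called, these false calls would exceed the share that the adjusted p threshold is meant to hold. In this simulation the threshold was therefore too lenient. WT vs CON, where MYOG was called close to the threshold, was not simulated. Levels are separate-channel values (loess, Aquantile), which set no probe against another. Positions are those of the files (NCBI36); 26222 of 27019 accessions matched the GRCh38.p14 gene table, used for names and promoters. The number of arrays limits the precision.

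Named genes were all members with all probes; list genes called in KD1 vs CON or KD1 vs WT, at most 6 per list; TCF3, TCF12, ID1, ID2 and ID3; for a called member, the 3 genes with the smallest root mean square difference of ratios; neighbours by their median; and the PAX3 and FOXO1 probes. The brightest probe represented a gene; 39 of 40 muscle genes and 19 of 21 cofactors were matched by symbol. Alternatives were normexp (offset 50) with loess, median centring, no filter or a stricter one, the series table, each comparison alone, no block, and leaving out replicates, extracts or arrays; the arrays, and the gene lists by replicate and without 1 extract, were chosen after seeing the data. Python 3.11.15 was also used.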

Additional observations from a re-analysis of the deposited data

How the results depend on the processing

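The call of MYOG in WT vs CON, 2 probes, depended on the processing. No member probe (0) was called there with normexp and loess, with median centring, without the filter on dim probes, or with the filter for both channels well above background. Each comparison fitted alone called 4 probes (MYOG, MYF5 and MEF2C), and the series table kept both MYOG probes. Without the replicate block (separate channels) 0 were called in each comparison, and the adjusted p of the brighter MYOG probe in WT vs CON was 0.204 (limma). Leaving out 1 extract gave 0 to 4 calls in WT vs CON: 4 without either KD1 extract, 2 without WT replicate 2, and 0 without CON replicate 1, CON replicate 2 or WT replicate 1. Either array of the KD1 vs WT replicate 2 pair left out, a choice made after seeing the data, gave 0. In KD1 vs CON the range was 0 to 2 calls, with 2 without either WT extract. In KD1 vs WT it was 0 to 1, with MYF5 called without KD1 replicate 1 or either CON extract, and also when each comparison was fitted alone (1 call). In each fit that called more member probes than the main fit, more of all probes tested were called as well. These added calls are therefore no result about the members. A fit without 1 extract also holds a single extract of that culture. Leaving out a replicate number leaves no test, so no count is given. The causes were not tested.

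Of the 27 log2 ratios of member probes, 17 kept their sign under every alternative run, among them MYOG and MEF2C in all comparisons and MYF5 against WT and in WT vs CON. Those of MYOD1, MEF2D A_23_P51679 in all comparisons, and of MYF5, both MEF2A probes and MEF2D A_23_P334186 in KD1 vs CON, changed sign without being called. MYF5 in KD1 vs CON ran from −1.23 to 0.44 with a replicate number left out. Over all probes the counts called in KD1 vs CON, KD1 vs WT and WT vs CON were 161, 107 and 131. They were 0, 1 and 0 with normexp (limma; 3531, 4231 and 4738 at an unadjusted p under 0.05), 83, 37 and 32 with median centring, 56, 13 and 31 with the stricter filter and 388, 368 and 946 alone. Without the filter the WT vs CON count was 82. With 1 extract left out they reached 1249, 809 and 1333.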
